A study of Mus musculus with 18 samples.

Results

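The 6 genes described here are Arntl (also named Bmal1), Clock, Npas2, Nr1d1, Nr1d2 and Rora, taken by name as the activators and the REV-ERB and ROR arm of the circadian clock. They are 6 of the 35551 gene IDs in the tables, and 5 of the 6 reached a mean of 10 normalized counts, the minimum for a test. Npas2 did not. The cells were AML12, an established mouse hepatocyte line derived from a mouse carrying a human TGF alpha transgene. They were synchronized before exposure, and times such as T20 are the labels' hours on that scale. Pemafibrate (Pema), a selective agonist of the nuclear receptor PPAR alpha, was compared with its vehicle DMSO in 3 windows: T0 to T24 (24 h), T14 to T20 (6 h, a day-like exposure in the design text) and T24 to T30 (6 h, night-like). Each of the 6 groups had 3 libraries of poly(A) RNA, numbered 1 to 3. All groups shared the cell line and the synchronization, and neither its method nor the drug dose is given in the sources used here. Whether the replicates are separate cultures is not said in the labels, and the p-values describe the spread among the sequenced libraries, part or all of which may be technical.

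In the textbook account, the ARNTL protein pairs with CLOCK, or with its paralog NPAS2, and binds E-box sequences to switch on clock genes, among them Nr1d1 and Nr1d2. Their products, REV-ERB alpha and REV-ERB beta, are nuclear receptors that repress Arntl through response elements called ROREs, and ROR proteins such as RORA activate through the same elements. In liver this arm of the clock is known for rhythmic control of lipid, bile acid and glucose metabolism.

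The promoters of 3 genes are shown because these are the genes whose levels differed between harvest times, Arntl as the target of the REV-ERB and ROR proteins and Nr1d1 and Nr1d2 as the genes of the REV-ERBs. Each runs 5′ to 3′ on the gene's strand, from 250 bases before to 50 after a RefSeq transcript start in the GRCm38.p6 build. Capitals mark matches to the motifs searched on both strands: CACGTG (E-box), CACGTT (a variant E-box), AGGTCA (the nuclear receptor hexamer), the RORE consensus and TTANGTAA (D-box). In Arntl (chr7:113207261-113207560, plus strand) the capitals mark a RORE, whose last letters are also the hexamer. In Nr1d1 (chr11:98775328-98775627, minus strand) they mark the variant E-box read on the other strand. In Nr1d2 (chr14:18239057-18239356, minus strand) they mark the hexamer.
Arntl: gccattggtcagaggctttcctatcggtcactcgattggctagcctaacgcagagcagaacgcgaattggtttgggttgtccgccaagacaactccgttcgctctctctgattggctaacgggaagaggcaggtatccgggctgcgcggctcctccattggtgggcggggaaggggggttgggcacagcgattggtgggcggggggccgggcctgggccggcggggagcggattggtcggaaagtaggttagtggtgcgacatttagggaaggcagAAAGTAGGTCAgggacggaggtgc
Nr1d1: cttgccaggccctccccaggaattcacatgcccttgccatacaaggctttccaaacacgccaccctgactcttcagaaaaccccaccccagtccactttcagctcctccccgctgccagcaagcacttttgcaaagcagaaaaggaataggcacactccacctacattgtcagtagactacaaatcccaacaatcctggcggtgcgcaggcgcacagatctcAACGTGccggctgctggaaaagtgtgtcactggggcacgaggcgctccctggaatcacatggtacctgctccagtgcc
Nr1d2: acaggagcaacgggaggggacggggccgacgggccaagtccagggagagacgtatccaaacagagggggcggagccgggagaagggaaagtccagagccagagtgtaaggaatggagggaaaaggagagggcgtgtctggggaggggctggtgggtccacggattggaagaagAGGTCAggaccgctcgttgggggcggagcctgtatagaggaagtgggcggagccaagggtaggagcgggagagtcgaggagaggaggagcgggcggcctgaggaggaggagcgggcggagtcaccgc
The RORE in the Arntl window starts at base 27 after the start, the variant E-box in Nr1d1 28 bases before it, and the hexamer in Nr1d2 77 bases before it. Of 32851 mouse promoter windows of 300 bases, 0.384% held the RORE consensus, 4.68% the variant E-box, 16.3% the hexamer, 7.15% the E-box and 2.32% the D-box. The other RefSeq window of Arntl, at chr7:113207215-113207514, held none of the 5 motifs. The Npas2 and Rora windows held none of them either, and 1 of the 3 Clock windows held the hexamer. A match describes letters in a window, and no binding was measured here.

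The 18 libraries had normalized totals between 31461977 and 33884634, and the 10 most abundant genes held 4.72% to 5.64% of them. The depth before the authors' normalization is unknown. The hepatocyte label was checked against marker genes: Trf (37979 to 61144 normalized counts over the 18 libraries), Hnf4a (5476 to 9662) and Alb (3124 to 7190) were present, while Apoa1 (2.96 to 15.8) and Ahsg (1.12 to 15.0) were near 0. Of 5 bile duct markers, 4 were high, among them Spp1 (28984 to 60975) and Krt19 (5793 to 12788), and Epcam was at most 7.25. Of 5 macrophage or leukocyte markers, Adgre1 and Clec4f were at 0 in all 18 libraries, and Csf1r (137 to 269), Cd68 (29.3 to 60.7) and Ptprc (27.6 to 58.5) were above the minimum. Of 4 endothelial markers, Pecam1 (7.92 to 32.4) was above it and Kdr, Stab2 and Cdh5 did not exceed 4.62. Of 6 stellate or fibroblast markers, Des (63.6 to 119.5), Col1a1 (11.3 to 78.3) and Acta2 (2.76 to 34.1) were above it and Col3a1, Pdgfrb and Lrat did not exceed 5.05. All 8 PPAR alpha target genes chosen as a check of exposure rose over the 3 windows, for example Acot1 by 0.73 ± 0.04 (log2, SE; adjusted p = 2.72e-07, limma).

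Between harvest times, Arntl was highest at T30 and Nr1d1 and Nr1d2 were lowest there, with DMSO and with pemafibrate alike. Nr1d1 was 2.88-fold lower at T30 than at T20 in DMSO libraries, while Arntl was 1.56-fold higher. Clock and Rora stayed within overlapping ranges at the 3 times, and Npas2 was barely detected. The authors normalized the 3 tables separately and the T24 libraries had 24 h of vehicle or drug against 6 h for the others, so these levels are descriptions without a test. T20 and T30 libraries had the same 6 h exposure, and there harvest time and table cannot be told apart, while in comparisons with T24 exposure length cannot be told apart from them either.

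Taking the 6 libraries of each harvest time together, 1 of 5 members (Arntl) lay wholly above at T30 against T20, where 0.241% of all genes did, and 2 of 5 (Nr1d1 and Nr1d2) lay wholly below, where 0.136% did. The same 3 genes stood apart for T30 against T24, with a background of 2.22% above and 0.815% below. For T24 against T20, none of the 5 stood apart, and 1.24% of all genes did in either direction. Within DMSO libraries alone, the background of 3 against 3 libraries without overlap was 7.77% for T30 against T20, 14.4% for T30 against T24 and 6.61% for T24 against T20. The median gene had a DMSO fold of 1.01, 1.03 and 0.985 in these comparisons.

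Arntl, the obligate partner of the activator pair, measured 297, 376 and 386 normalized counts in DMSO replicates 1, 2 and 3 at T20, 194, 264 and 290 at T24, and 578, 594 and 476 at T30. With pemafibrate it measured 254, 356 and 398 at T20, 222, 267 and 315 at T24, and 516, 567 and 524 at T30. The 6 libraries at T30 all lay above the 12 others, and within T20 and T24 the lowest library of each treatment was replicate 1. The DMSO means were 353 ± 48.9 at T20, 249 ± 49.6 at T24 and 550 ± 64.0 at T30 (SD, n = 3), and the pemafibrate means were 336 ± 73.9, 268 ± 46.9 and 536 ± 27.6. In DMSO libraries the T30 mean was 2.20 times the T24 mean, and the fold differed between replicate numbers, at 2.98, 2.25 and 1.64. The T24 mean was 0.707 of the T20 mean with DMSO, without overlap of the 3 libraries, and 0.797 with pemafibrate, with overlap. Among 13258 genes, 36 had a DMSO fold from T24 to T30 as high as that of Arntl or higher (0.272%). From T20 to T30, where exposure length was equal, 120 did (0.905%).

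Clock encodes the histone acetyltransferase partner of ARNTL. With DMSO it measured 3032, 2480 and 3268 normalized counts in replicates 1 to 3 at T20, 2932, 2318 and 2897 at T24, and 3764, 2743 and 3249 at T30. With pemafibrate it measured 3362, 2686 and 3282 at T20, 3105, 2667 and 2983 at T24, and 3616, 2537 and 3350 at T30. Replicate 2 was the lowest library in each of the 6 groups, and the ranges at the 3 harvest times overlapped. The DMSO means were 2927 ± 404, 2716 ± 345 and 3252 ± 510 (SD, n = 3) in the order T20, T24, T30. Within replicate numbers, Clock was lower at T24 than at T20 in 3 of 3 pairs with DMSO and 3 of 3 with pemafibrate, with T24 means of 0.928 and 0.938 times the T20 means. Of all genes, 24.1% with DMSO and 29.0% with pemafibrate had a fold as low or lower. The pemafibrate fold of replicate 2 was 0.993. A common rescaling would divide its T20 library by 1.003 and its T24 library by 0.990, so the direction of that pair depends on the scaling. Clock was higher at T30 than at T24 in 3 of 3 pairs with DMSO and 2 of 3 with pemafibrate. For this step, 10.9% of all genes had a DMSO fold as high or higher.

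Npas2, the paralog of Clock, was listed at 0 in 12 of the 18 libraries. Its highest value was 2.97 normalized counts, in DMSO replicate 2 at T30, and the other 5 values above 0 ran from 0.987 to 0.995. It was not tested, and no fold is given.

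Nr1d1, which encodes REV-ERB alpha, measured 2202, 1679 and 1973 normalized counts in DMSO replicates 1 to 3 at T20, 1911, 1580 and 1864 at T24, and 679, 615 and 736 at T30. With pemafibrate it measured 2033, 1849 and 1931 at T20, 1893, 1650 and 1838 at T24, and 697, 645 and 682 at T30. Every library at T30 lay below every library at T20 and T24. The DMSO means were 1952 ± 263, 1785 ± 179 and 677 ± 60.9 (SD, n = 3), and the pemafibrate means were 1937 ± 92.4, 1793 ± 127 and 675 ± 26.8. The DMSO mean at T30 was 0.347 of that at T20, with 0.308, 0.366 and 0.373 in replicates 1, 2 and 3, and the pemafibrate fraction was 0.348. Of 13258 genes, 16 had a DMSO fold from T20 to T30 as low as that of Nr1d1 or lower (0.121%). From T24 to T30, 22 did (0.166%). Within replicate numbers, Nr1d1 was also lower at T24 than at T20 in 3 of 3 pairs of each treatment, with T24 means of 0.915 and 0.926 times the T20 means. Folds as low or lower were common, in 19.7% of all genes with DMSO and 24.0% with pemafibrate. Its exons share 263 of 3077 bases with Thra on the other strand in the GENCODE annotation of GRCm38. The libraries were made strand-specific, but whether counting used the strand is not stated, and reads from those bases cannot be told apart. Thra itself, the thyroid hormone receptor alpha gene, had a DMSO mean at T30 of 0.987 times that at T20.

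Nr1d2, the REV-ERB beta gene, measured 3276, 2549 and 2411 normalized counts with DMSO in replicates 1 to 3 at T20, 3581, 2722 and 2907 at T24, and 1993, 1560 and 1870 at T30. The pemafibrate libraries gave 3429, 2347 and 2394 at T20, 3464, 2736 and 2857 at T24, and 1989, 1536 and 1811 at T30. All 6 libraries at T30 lay below the 12 others, and replicate 1 was the highest library in each group. The DMSO means were 2745 ± 465, 3070 ± 452 and 1808 ± 223 (SD, n = 3). The T30 mean was 0.658 of the T20 mean and 0.589 of the T24 mean with DMSO, and 0.653 and 0.589 with pemafibrate. Of 13258 genes, 174 had a DMSO fold from T20 to T30 as low or lower (1.31%), and 247 from T24 to T30 (1.86%). From T20 to T24, Nr1d2 was higher in 3 of 3 pairs of each treatment, by 1.12-fold with DMSO and 1.11-fold with pemafibrate. Of all genes, 14.6% with DMSO and 16.7% with pemafibrate had a fold as high or higher. Nr1d2 thus differed less between T20 and T30 than Nr1d1 in all 3 replicates, with DMSO fractions of 0.609, 0.612 and 0.776.

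Rora, the ROR gene among the 6, had the narrowest relative range of the tested members. With DMSO it measured 712, 685 and 572 normalized counts in replicates 1 to 3 at T20, 760, 627 and 664 at T24, and 678, 665 and 714 at T30. With pemafibrate it measured 696, 728 and 627 at T20, 784, 718 and 640 at T24, and 680, 652 and 605 at T30. The ranges overlapped at all 3 times, and the DMSO means of 656 ± 74.5, 683 ± 68.6 and 686 ± 25.5 (SD, n = 3) did not differ beyond their spread. Rorb, another ROR gene, held 257 to 358 normalized counts over the 18 libraries. Arntl2, the paralog of Arntl, lay between 17.1 and 68.3.

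**Figure D1:**
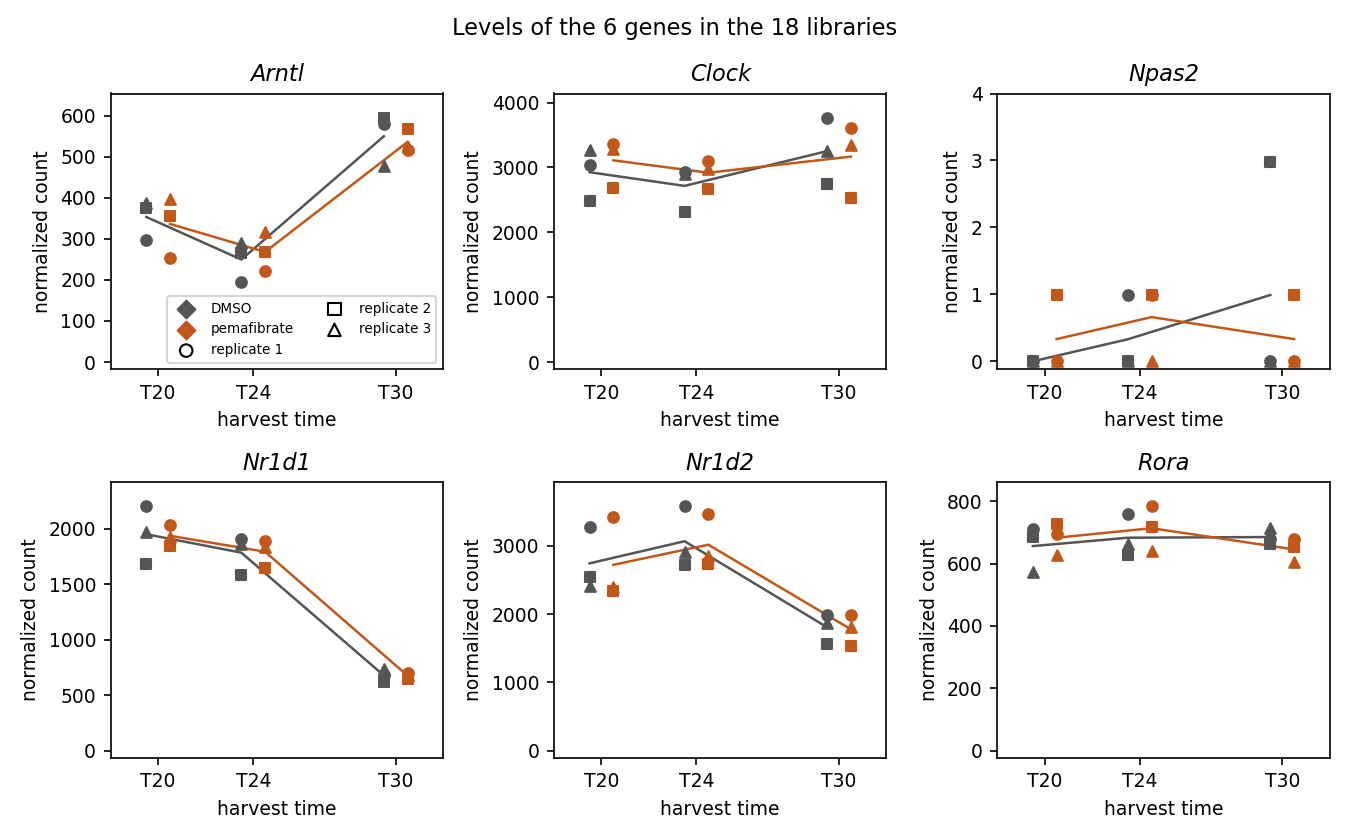
Normalized counts of the 6 genes (y axis, linear) by harvest time (x axis), with grey for DMSO, orange for pemafibrate, a marker for each replicate number and lines through the group means of 3 libraries. Arntl lies between 476 and 594 at T30 and at most at 398 before it, Nr1d1 is at least 1580 at T20 and T24 and at most 736 at T30, and Npas2 stays at or under 2.97.

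Differences between genes of the same library do not depend on how that library was scaled. The log2 level of Arntl minus that of Nr1d1 was -2.46 ± 0.38 at T20, -2.85 ± 0.39 at T24 and -0.30 ± 0.30 at T30 in DMSO libraries (SD, n = 3). With pemafibrate it was -2.55 ± 0.39, -2.75 ± 0.30 and -0.33 ± 0.13. The 6 libraries at T30 ran from -0.63 to -0.05 and the 12 others from -3.29 to -2.16, so the groups did not overlap. The counts are not per length, so only the change of such a difference between times can be read, not its sign.

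Arntl minus Nr1d2 moved the same way, from -2.95 ± 0.44 at T20 and -3.63 ± 0.50 at T24 to -1.72 ± 0.30 at T30 with DMSO. Nr1d1 minus Nr1d2 went stepwise from -0.49 ± 0.17 over -0.78 ± 0.13 to -1.41 ± 0.12 with DMSO and from -0.47 ± 0.25 over -0.75 ± 0.12 to -1.39 ± 0.13 with pemafibrate. The level of Nr1d1 relative to Nr1d2 was thus lower at each later time in both treatments. Rora minus Nr1d1 was -1.57 ± 0.25, -1.38 ± 0.09 and 0.02 ± 0.08 with DMSO.

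**Figure D2:**
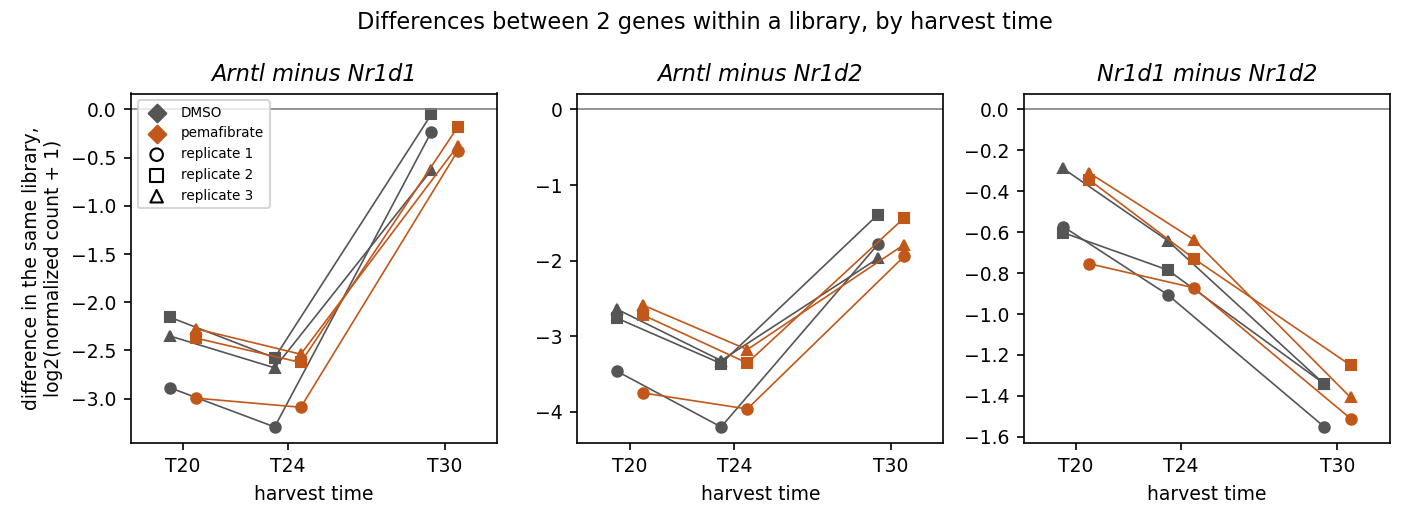
Differences of log2(normalized count + 1) between 2 genes of the same library (y axis) by harvest time (x axis), with grey for DMSO, orange for pemafibrate and lines joining libraries of the same replicate number. Arntl minus Nr1d1 and Arntl minus Nr1d2 are highest at T30 in every replicate number, and Nr1d1 minus Nr1d2 is lowest there.

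Pemafibrate against DMSO was compared within each window, pairing libraries of the same replicate number. None of the 5 tested members passed an adjusted p of 0.05 in any window, and none had an unadjusted p under 0.05 there (limma). The background was low too: 7 of 13325 genes (0.0525%) passed an adjusted p of 0.05 for T0 to T24, 5 of 13210 (0.0379%) in the day-like window and 5 of 13231 (0.0378%) in the night-like window (limma). Genes with an unadjusted p under 0.05 numbered 689, 1075 and 994. Of the PPAR alpha list, 6, 3 and 3 of 8 passed in these windows. The genes that passed included Acot1, Aldh1a1, Plin2 and Gm10241 for T14 to T20 and Acot1, Aldh1a1, Angptl4 and Syt7 for T24 to T30, all named after their values were seen. Gm10241 fell, and the others named here rose.

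Arntl differed by 0.11 ± 0.09 (log2, SE) for T0 to T24, by -0.09 ± 0.09 for T14 to T20 and by -0.03 ± 0.08 for T24 to T30, with adjusted p = 0.975, 0.826 and 0.932 (limma, 3 pairs each). It was higher with pemafibrate in 3 of 3 pairs, 1 of 3 and 1 of 3. The 95% confidence intervals ran from -0.11 to 0.32, from -0.29 to 0.11 and from -0.22 to 0.16. These were the widest intervals of the 5 tested members in each window.

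Clock differed by 0.11 ± 0.05 for T0 to T24 (adjusted p = 0.946), by 0.09 ± 0.04 for T14 to T20 (adjusted p = 0.62) and by -0.04 ± 0.04 for T24 to T30 (adjusted p = 0.82; limma). It was higher with pemafibrate in all 3 pairs of each of the first 2 windows, with unadjusted p = 0.0519 and 0.0593, and in 1 of 3 pairs of the last. These were the smallest unadjusted p-values of any member in a window. The intervals, from -0.0012 to 0.22, from -0.0046 to 0.18 and from -0.15 to 0.062, all held 0.

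The REV-ERB genes lay closest to 0. Nr1d1 differed by 0.0094 ± 0.046, -0.0027 ± 0.054 and -0.0012 ± 0.066 for T0 to T24, then T14 to T20, then T24 to T30, with intervals that together ran from -0.16 to 0.15. Nr1d2 differed by -0.022 ± 0.040, -0.021 ± 0.044 and -0.024 ± 0.043, with intervals that together ran from -0.13 to 0.083. The adjusted p-values were 0.995, 0.995 and 0.998 for Nr1d1 and 0.986, 0.923 and 0.898 for Nr1d2 (limma). Nr1d1 was higher with pemafibrate in 4 of the 9 pairs and Nr1d2 in 2 of the 9. Rora differed by 0.063 ± 0.071, 0.062 ± 0.062 and -0.087 ± 0.072, with adjusted p = 0.985, 0.828 and 0.775.

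**Figure D3:**
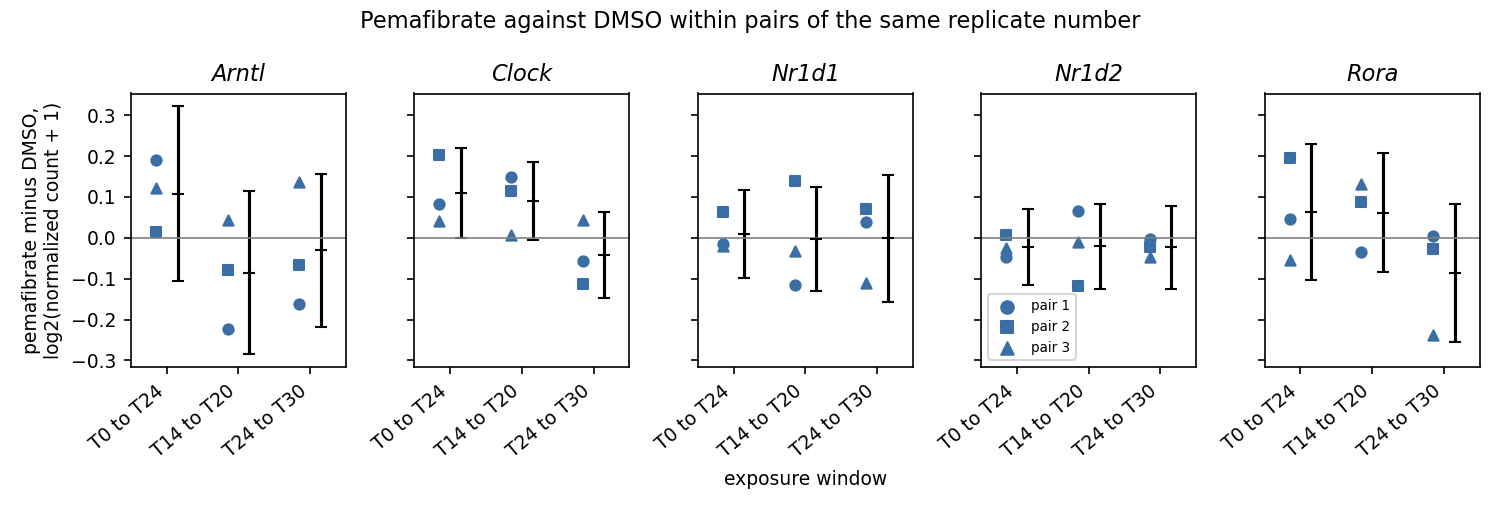
Pemafibrate minus DMSO as log2(normalized count + 1) (y axis) by exposure window (x axis) for the 5 tested genes, with a blue marker for each of the 3 pairs and a black bar for the limma estimate with its 95% confidence interval. Every interval holds 0, and the 3 pairs of Clock lie above 0 in the first 2 windows.

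One effect common to the 9 pairs of the 3 windows gave narrower intervals, and again no member passed, where 25 of 13258 genes did (0.189%). Arntl differed by -0.0029 ± 0.049 (interval -0.11 to 0.10), Clock by 0.052 ± 0.030 (-0.013 to 0.12) and Rora by 0.012 ± 0.041 (-0.077 to 0.10). Nr1d1 differed by 0.0018 ± 0.030 (-0.062 to 0.066) and Nr1d2 by -0.022 ± 0.021 (-0.068 to 0.024). In fold terms, the widest interval, that of Arntl, ran from 0.927 to 1.07. The adjusted p-values ran from 0.84 for Clock to 0.998 for Arntl and Nr1d1.

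Pemafibrate libraries were higher in 5 of 9 pairs for Arntl, 7 for Clock, 4 for Nr1d1, 2 for Nr1d2 and 5 for Rora. An exact two-sided sign-flip permutation test over the 9 pairs gave p = 0.965, 0.156, 0.953, 0.223 and 0.77 in that order, where the smallest p it can give is 0.0039. It too takes the 9 pairs as independent, although they come from 3 replicate numbers. Of the related genes, Rorb differed by 0.091 ± 0.051 and Arntl2 by 0.098 ± 0.21, with adjusted p = 0.829 and 0.964 (limma). By window, Rorb differed by -0.041 ± 0.089 for T0 to T24, 0.094 ± 0.085 for T14 to T20 and 0.22 ± 0.08 for T24 to T30. In the last window it was higher in 3 of 3 pairs (interval 0.025 to 0.41; adjusted p = 0.657, limma). The difference between T0 to T24 and T24 to T30 was -0.26 ± 0.11 (adjusted p = 0.614, limma). Both had an unadjusted p under 0.05, at 0.032 and 0.0343. Arntl2 differed by 0.16 ± 0.31, -0.25 ± 0.25 and 0.38 ± 0.40 in these windows.

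Whether the effect differed between windows was tested directly, and 0% of 13258 genes passed in each of the 3 differences, with unadjusted p under 0.05 in 1225 genes for T14 to T20 minus T24 to T30, 654 for T0 to T24 minus T14 to T20 and 1057 for T0 to T24 minus T24 to T30. Between the day-like and the night-like window, the effect on Clock differed by 0.13 ± 0.06 (interval -0.0060 to 0.27, adjusted p = 0.541) and that on Rora by 0.15 ± 0.10 (-0.062 to 0.36, adjusted p = 0.646). The differences for Arntl, Nr1d1 and Nr1d2 were -0.055, -0.0015 and 0.0028. The smallest unadjusted p of any member, 0.0346, was that of Clock for T0 to T24 minus T24 to T30, at 0.15 ± 0.06 (adjusted p = 0.614).

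For each tested member the largest difference between replicate numbers exceeded its largest pemafibrate effect in a window. With group as a term, all 5 tested members differed between replicate numbers (limma F test), and so did 67.7% of all genes, so the members did not stand out in this. This test and its contrasts take the 18 libraries as independent, although those of the same number and window form pairs. Their p-values may therefore be too small. Clock was lower in replicate 2 than in replicate 1 by 0.36 ± 0.04 and than in replicate 3 by 0.30 ± 0.04 (log2, SE; adjusted p = 7.47e-06 and 2.9e-05). Nr1d1 had the same order, with replicate 2 minus 1 at -0.21 ± 0.04 and replicate 3 minus 2 at 0.17 ± 0.04. Nr1d2 was highest in replicate 1, by 0.40 ± 0.05 over replicate 2 and 0.29 ± 0.05 over replicate 3.

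Arntl had the other order and was lowest in replicate 1, with replicate 2 minus 1 at 0.28 ± 0.10 and replicate 3 minus 1 at 0.31 ± 0.10 (adjusted p = 0.0258 and 0.015). At T30 that order did not hold, since DMSO replicate 3 was the lowest there. Rora was lower in replicate 3 than in replicate 1, at -0.17 ± 0.06 (adjusted p = 0.0175). The shares of all genes that differed in these contrasts were 45.2% for replicate 2 against 1, 51.6% for 3 against 1 and 44% for 3 against 2. The calls for Arntl and Nr1d2 depended on replicate 1 and those for Clock and Nr1d1 on replicate 2: without replicate 1, adjusted p = 0.829 for Arntl and 0.0952 for Nr1d2, and without replicate 2, 0.31 for Clock and 0.478 for Nr1d1. Rora did not pass without replicate 1 (adjusted p = 0.217) or without replicate 3 (0.242), and Arntl did not pass without replicate 2 either (0.0568). Rora also did not pass with no filter on low values (0.057).

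The summed level of the 5 bile duct markers also moved with replicate 2, at 69742 to 76849 normalized counts against 51669 to 60371 in replicate 1 and 49624 to 54116 in replicate 3. The hepatocyte sum was 59019 to 65488, 59023 to 74267 and 52260 to 66476 in replicates 1, 2 and 3. The part of these marker levels in the differences between replicate numbers was not tested.

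**Figure D4:**
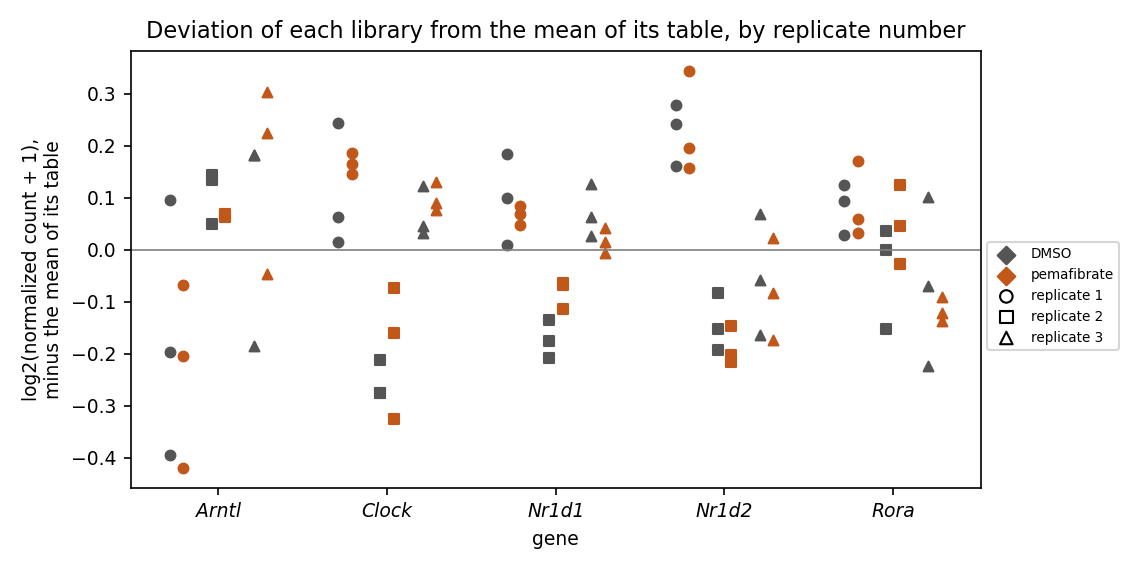
Deviation of log2(normalized count + 1) of each library from the mean of its table (y axis) for the 5 tested genes (x axis), by replicate number (marker) and treatment (grey DMSO, orange pemafibrate). Clock and Nr1d1 are lowest in replicate 2, Nr1d2 is highest in replicate 1, and 5 of the 6 Arntl libraries of replicate 1 lie below 0.

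After the mean of each table was removed, Arntl and Nr1d2 had the most negative correlation among the members (Pearson r = -0.81 over 18 libraries), and Arntl and Nr1d1 had r = -0.51. Clock went with Nr1d1 (r = 0.72), and Nr1d1 with Nr1d2 (r = 0.70). The share of this variance that lay between replicate numbers was 85.5% for Nr1d2, 83.9% for Clock, 77.1% for Nr1d1, 48.8% for Arntl and 44.1% for Rora. The libraries share replicate numbers, so these values are descriptions without a p. Among 13044 genes, those most like Arntl in this measure were Rala (r = 0.91), Gm15772 (0.90) and Rps29 (0.89). The nearest to Clock were Phldb2 (0.96), Ankrd28 (0.95) and Nid1 (0.95). Those nearest to Nr1d1 were Ino80 (0.91), Dusp8 (0.90) and Parp2 (0.90). For Nr1d2 they were Wsb1 (0.96), Olfr1336 (0.94) and Hnrnpdl (0.94), and for Rora Wdfy3 (0.87), Invs (0.85) and Fance (0.85).

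Of 24 other clock genes, 23 reached the minimum, and 0 of the 23 passed for pemafibrate in any window, over the windows or in a difference between windows (limma). An unadjusted p under 0.05 was reached by 0, 1 and 1 of the 23 in the 3 windows and by 0 over the windows. Over all genes the shares were 5.17%, 8.14%, 7.51% and 6.45% in that order. Their median over the 3 windows was -0.024 on the log2 scale against -0.0025 for all genes. Among the smallest p-values were those of Wee1 (0.05 ± 0.02, adjusted p = 0.814), Rorb and Cry2 (-0.05 ± 0.03, 0.868). Between harvest times in DMSO libraries, 2 of the 23 lay wholly above at T30 against T20 and 5 wholly below. Of all genes, 7.77% stood apart there in either direction. For T30 against T24 the counts were 3 and 9, where 14.4% of all genes stood apart. For T24 against T20 they were 2 and 0, where 6.61% did. Cry1, a repressor of the ARNTL and CLOCK pair whose gene is itself held down by REV-ERB, was at 294 ± 20.9 normalized counts at T20 and 604 ± 85.5 at T30. Dbp, an E-box driven transcription factor gene, was at 944 ± 203 and 314 ± 92.6. Both were picked for their harvest levels after these were seen.

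Of 18 genes for cofactors and turnover of the member proteins, such as the REV-ERB corepressors Ncor1 and Hdac3, 1 rose over the 3 windows and none fell. Of all genes, 0.189% passed there in either direction. An unadjusted p under 0.05 (limma) was reached by 5 of the 18 over the windows, where 6.45% of all genes reached it. Single windows gave 2, 3 and 1 of the 18, where 5.17%, 8.14% and 7.51% of all genes reached it. Over the windows 14 of the 18 estimates were positive, and the list was not tested as a set. The 1 that rose was Nrip1, which encodes a nuclear receptor corepressor, at 0.20 ± 0.03 (adjusted p = 0.022, limma). Its estimate stayed at 0.20 or 0.21 without any 1 replicate number, but it no longer passed, with adjusted p from 0.23 to 0.389. Nor did it pass with windows averaged within replicate number (0.0946), without a variance trend (0.0755) or without pairing. Ppargc1a, a coactivator gene that also serves ROR proteins, had 0.16 ± 0.05 (adjusted p = 0.531), Kat2b -0.11 ± 0.04 (0.629) and Crebbp 0.07 ± 0.03 (0.707).

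Of 12 liver genes under REV-ERB or ROR control, 5 reached the minimum in these cells and 0 of the 5 passed for pemafibrate (limma), with 1 of the 5 at an unadjusted p under 0.05 over the windows. Of all genes, 6.45% reached that unadjusted p. Nfil3, which encodes a repressor of D-box genes, had -0.04 ± 0.03 over the 3 windows (adjusted p = 0.91), Cry1 -0.06 ± 0.06 (0.927) and Insig2 0.04 ± 0.04 (0.927). The 7 genes under the minimum included Elovl3, Cyp8b1, Pck1 and Apoc3, with at most 1.01, 2.04, 1.57 and 2.01 normalized counts in any library, and Cyp7b1, listed at 0 in all 18.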

How the data were processed

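Poly(A) RNA of 18 AML12 libraries was sequenced as strand-marked libraries, per the labels' protocols. The authors deposited 1 table per window with normalized signal per gene, that is counts scaled within that table; the column names end as salmon output does, per the file headers, and the genome build and annotation are not stated. Symbols matched 35181 of 35551 gene IDs. Of the values worth at most 8 reads, 63.0% to 75.5% per library lay within 0.05 of a whole read, so reads were not recovered and no count model was used.

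Groups and replicate numbers came from the sample titles. Each table was fitted alone in limma 3.58.1 (R 4.3.3) on log2(value + 1), a scale that understates changes of low genes, for genes with a mean of at least 10, with a variance trend and the replicate number as a block. p-values are two-sided and adjusted by Benjamini-Hochberg over all genes tested, with a threshold of 0.05. The 3 windows together were fitted with the 9 pairs as blocks. Libraries of the same number deviated together in all 9 pairs (r from 0.31 to 0.62), which is where the pairing comes from beside the titles. Those of different numbers had r from -0.42 to -0.11. Deviations were taken from the mean of each group of 3 libraries. With a positive r for equal numbers, this pushes the other r below 0, so they are no separate support. The fits were tested on data simulated with known changes and with errors independent between libraries. A true 1.25-fold change was called in 46% to 55.1% of the changed genes in a single window and in 80% over the 3 windows. False calls numbered 10 to 17. The simulation changed up to 50 genes at each fold size, which eases the adjusted threshold, while only 5 to 7 genes passed per window here. It called 82% of 1.5-fold changes in each 6 h window. In the data, 3 of the 8 PPAR alpha targets passed in each, with median log2 effects of 0.77 and 0.68. The simulated shares are thus too high for these data, and changes of 1.25-fold and larger could be missed in a single window. Alternatives were other pseudocounts, filters, scalings and variance settings, no block, a shared fit, windows averaged, and each replicate number left out. Promoter windows came from RefSeq (GRCm38.p6), where all 6 genes had an entry.

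The named genes are the 6 members, Rorb, Arntl2 and Thra, the 3 genes most correlated with each member, and up to 4 genes of each list by smallest p over the 3 windows; some genes these rules name are not reported here. The members and lists were chosen with earlier results of these data known.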

Additional observations from a re-analysis of the deposited data

How the results depend on the processing

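No member passed for pemafibrate in any of the 440 refits of the members' effects and of their differences between windows under the alternatives, where the lowest adjusted p was 0.52. These refits are weak support, since the lowest adjusted p of a member in the main fits was already 0.541 (limma). Several alternatives also called no gene at all in a window. The harvest folds of the 5 members in DMSO libraries moved by less than the spread between replicates in all 60 refits. This outcome was close to fixed in advance. Leaving out 1 of 3 replicates can hardly move a mean by more than that spread. The rescaling factors of these libraries ran only from 0.991 to 1.01. The 60 refits therefore say little about how stable the folds are. Over all genes, no genes passed in any of the 3 windows without the replicate block, without the filter on low values (each 0, 0 and 0) or without a variance trend (0, 0 and 0), and 2, Angptl4 and Pdk4, passed over the 3 windows without the block. Robust variance gave 8 for T14 to T20, a shared fit gave 14 for T0 to T24, 9 for T14 to T20 and 8 for T24 to T30, and averaged windows gave 12. Leaving each replicate number out gave 4 (without replicate 2) to 12 (without replicate 1) for T0 to T24, 1 (without replicate 2, Eif4a-ps4) to 7 for T24 to T30, 12 (without replicate 2) to 17 over the windows and 0 to 1 for each difference between windows (Col7a1 without replicate 2, Rpl14-ps1 without replicate 1, Gm2223 without replicate 3). Genes that differed between replicate numbers numbered 5429 (without replicate 3) to 6310, and members 2 (without replicate 1, or without replicate 2) to 4. Estimates near 0 changed sign when a replicate number was left out, for causes not tested. For T0 to T24 these were Nr1d1 (-0.017 to 0.024) and Rora (-0.0040 to 0.12). For T14 to T20 they were Nr1d1 (-0.073 to 0.054) and Nr1d2 (-0.064 to 0.028), and for T24 to T30 Arntl (-0.11 to 0.035) and Nr1d1 (-0.037 to 0.054). Over the windows they were Arntl (-0.054 to 0.028), Nr1d1 (-0.042 to 0.030), Rora (-0.024 to 0.045) and Arntl2 (-0.069 to 0.19). For T14 to T20 minus T24 to T30 they were Nr1d1 (-0.042 to 0.074) and Nr1d2 (-0.030 to 0.053). For T0 to T24 minus T14 to T20 they were Clock (-0.015 to 0.062), Nr1d1 (-0.033 to 0.056), Nr1d2 (-0.064 to 0.056) and Rora (-0.053 to 0.094), and for T0 to T24 minus T24 to T30 Nr1d1 (-0.029 to 0.042) and Nr1d2 (-0.012 to 0.025). Rescaling also turned differences between windows. By median ratio, Nr1d1 was 0.0038 for T14 to T20 minus T24 to T30 and Nr1d2 0.0010 for T0 to T24 minus T14 to T20. By upper quartile, Nr1d1 was 0.0077 for T14 to T20 minus T24 to T30, Nr1d1 was -0.0033 and Rora -0.014 for T0 to T24 minus T14 to T20, and Nr1d2 was -0.0043 for T0 to T24 minus T24 to T30. The depth before normalization is unknown, so what it limits cannot be given.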
